A study of Homo sapiens with 10 samples.

Results

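The response of A549 cells to discodermolide was described across 18279 genes on 6 of the 10 arrays of the series. The members were taken by their labels: 2 arrays of A549 cells given 32 nM discodermolide and labelled senescent, and 4 arrays of A549 cells given 0.01% DMSO and labelled sensitive. The other 4 arrays were not compared here: 3 of AD32 cells, a resistant line kept in 32 nM discodermolide, and 1 of AD32 4E-BP1 cells in 0.01% DMSO. The AD32 arrays entered the estimate of the spread between samples, to which a group of 1 array adds nothing. All 10 arrays were used to choose the probe set of a gene. All lines were grown in RPMI medium with serum. How long the drug was given, and whether numbered samples were separate cultures, is not given in the sources used here, so the p-values measure the spread between these samples, which may be technical.

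Discodermolide is a natural product that binds tubulin and stabilises microtubules, which blocks dividing cells in mitosis. Cells that outlive such a block may leave the cell cycle for good, a state called senescence. In senescent cells p53 and the cyclin-dependent kinase inhibitor p21 are known to be active, transcripts of DNA replication and mitosis are low, lysosomes are enlarged and many secreted proteins are high. A549 is an established line from a human lung adenocarcinoma with working p53 and a known deletion of CDKN2A.

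Levels are deposited log2 signals, on which a step of 1 is a doubling. Genes were tested with limma, and a gene was called higher or lower where its p-value, adjusted over all 18279 genes, was under 0.05. The comparison was made against all 4 DMSO arrays and again without DMSO replicate 1; these are called the 4-array and the 3-array comparison. Array medians lay between 6.50 and 6.63 and lower quartiles between 4.77 and 4.94. On DMSO replicate 1 the spread of levels was narrower than on the other A549 arrays, with a lower quartile of 4.94 and an upper quartile of 8.14, against upper quartiles of 8.35 to 8.39 on the other 5, and the part of this in the differences was not tested. The values carry no detection call, so a level near or below the lower quartile was read only as low, and a fold change from such a level need not be a ratio of transcripts.

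DMSO replicate 1 stood apart from the other DMSO arrays. Across genes its Pearson correlation was 0.954, 0.948 and 0.951 with DMSO replicates 2, 3 and 4, but 0.976 and 0.974 with the 2 treated arrays. DMSO replicates 2 to 4 correlated with the treated arrays at 0.961 to 0.966, and with one another at 0.990 to 0.997. DMSO replicates 3 and 4 were nearly the same: 1 gene differed between them by over 1 on the log2 scale, against 95 between replicates 2 and 4 and 94 between the treated arrays. The median SD of a gene over DMSO arrays was 0.23 with replicate 1 and 0.13 without it, and 2127 and 220 genes had an SD over 0.5. These correlations are across genes of whole arrays, which share probes and processing, and genes are not independent replicates. Every 4-array value below takes DMSO replicate 1 to be what its label says, and all values but those with DMSO replicates 3 and 4 as 1 sample take these to be separate samples. Neither was tested.

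In the 4-array comparison 64 genes were higher in treated cells (0.35% of all tested) and 4 were lower (0.0219%). In the 3-array comparison 462 were higher (2.53%) and 181 lower (0.99%), and these 643 genes (3.52%) held all 68 genes (0.372%) of the first. The median log2 difference of the called genes was 1.45 for rises and -1.60 for falls with all 4 DMSO arrays, and 1.11 and -1.30 without replicate 1. Over all genes the median difference was 0.02 and 0.04. When the nearly identical DMSO replicates 3 and 4 were counted as 1 sample, 15 genes were called in the 4-array and 55 in the 3-array comparison, each a subset of the reported calls. Leaving out 1 array gave, in the 4-array comparison, 643 calls without DMSO replicate 1, 16 without DMSO replicate 2, 15 without replicate 3, 12 without replicate 4, and 12 and 8 without treated replicate 1 and 2. In the 3-array comparison 433, 57 and 57 were called without DMSO replicate 2, 3 and 4, and 89 and 27 without treated replicate 1 and 2. With the A549 arrays fitted alone, the counts were 106 and 3452, the latter 18.9% of all genes (10.7% higher and 8.21% lower). The count of called genes therefore rests on few arrays, and levels on each array are given below beside the tests.

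LBP, SULF2, TTR, VTN and HP were called higher in the 4-array comparison whichever 1 of the 6 arrays was left out. LBP encodes lipopolysaccharide-binding protein, a secreted protein that hands bacterial lipid to CD14. Its level was 4.47, 4.57, 4.41 and 4.70 on DMSO replicates 1 to 4 and 7.55 and 7.87 on the treated arrays (log2 difference 3.17, SE 0.15, adjusted p = 7.4e-05). The groups were over 2 units apart, with all DMSO arrays below the lower quartile. TTR, the thyroid hormone and retinol carrier transthyretin, was at 5.49, 5.50, 5.48 and 5.34 in DMSO and at 7.42 and 7.63 in discodermolide (difference 2.07, SE 0.13, adjusted p = 0.000293). VTN, the adhesive plasma protein vitronectin, was at 5.89, 6.30, 5.82 and 6.04 against 8.34 and 8.18 (2.25, SE 0.16, adjusted p = 0.000841). For LBP, TTR and VTN, DMSO replicate 1 lay within the range of the other DMSO arrays. HP, the haemoglobin carrier haptoglobin, which was chosen after its values were seen, stood at 2.95, 3.28, 3.15 and 3.17 against 4.92 and 5.14 (1.89, SE 0.15, adjusted p = 0.00134), a rise from a very low signal. SULF2, an extracellular enzyme that removes sulfate from heparan sulfate, stood at 7.76, 7.54, 7.69 and 7.86 against 10.60 and 10.26 (2.72, SE 0.16, adjusted p = 0.000246). With single arrays left out the highest adjusted p of these genes ran from 0.00392 for LBP to 0.0391 for HP.

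**Figure D1:**
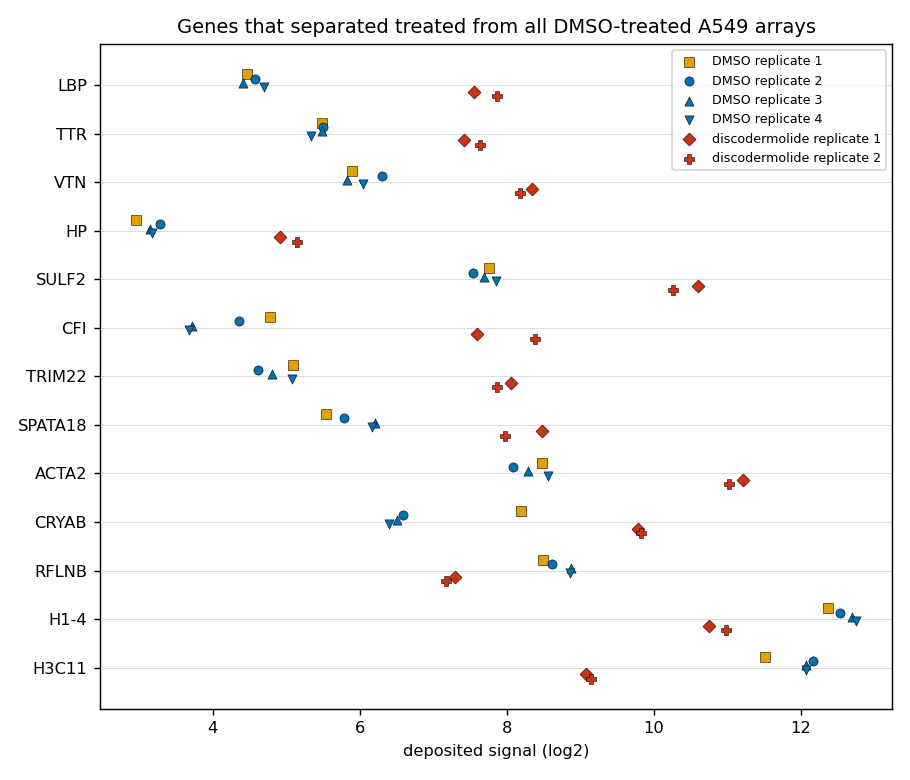
Deposited log2 signal (horizontal axis) of 13 genes on each of the 6 A549 arrays, squares, circles and triangles for DMSO and red marks for discodermolide. The genes were drawn from those called with all 4 DMSO arrays, none of which overlapped between the groups. Their separation thus follows from that choice, and over all genes the groups did not overlap for 22.9%. CRYAB on DMSO replicate 1 (8.20) lay between DMSO replicates 2 to 4 (6.40 to 6.59) and treated cells (9.79 and 9.83).

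Genes for proteins that the liver secretes into plasma held the largest share of calls among the lists that were examined. The lists had been chosen with earlier results of these arrays known, so this rank is no independent evidence. Of 35 members measured, 7 were higher and 0 lower in the 4-array comparison (20%, against 0.372% of all genes). In the 3-array comparison 17 were higher and 0 lower (48.6%, against 3.52% of all genes). Without DMSO replicate 2, 3 or 4 the count was 5 each time in the 4-array comparison and 18, 9 and 9 in the 3-array one. With DMSO replicates 3 and 4 as 1 sample it was 5 and 9. The median log2 difference was 1.11 and 1.29. In bulk RNA a change of the share of cells that express a gene and a change of level per cell cannot be told apart, here or below. CFI, the protease that inactivates complement C3b and C4b, rose from 4.78, 4.35, 3.72 and 3.68 to 7.60 and 8.38 (3.86, SE 0.35, adjusted p = 0.004). All DMSO values of CFI lay near or below the lower quartiles, and the call ended without treated replicate 2 (adjusted p = 0.0652). SERPINA3, the acute phase inhibitor antichymotrypsin, stood at 5.47 on DMSO replicate 1, at 4.42 to 4.68 on the others and at 6.63 and 7.30 in treated cells (2.21, SE 0.31, adjusted p = 0.0265). Its call ended with any single array other than DMSO replicate 1 left out (adjusted p up to 0.332) and held under all 5 such omissions in the 3-array comparison (at most 0.028). F2, which encodes prothrombin, completed the 7 (1.19, adjusted p = 0.0296) and also lost its call with any single array other than DMSO replicate 1 left out (up to 0.294).

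C3, C4BPA and FGL1 were called only without DMSO replicate 1 and were high on that array. C3, the central component of complement, was at 9.62 on DMSO replicate 1, at 6.48, 6.57 and 6.43 on replicates 2 to 4 and at 10.04 and 10.97 in treated cells. Its log2 difference was 4.01 in the 3-array comparison (SE 0.27, adjusted p = 0.000779), and 3.23 with an adjusted p of 0.168 in the 4-array one. C3 stayed called in the 3-array comparison with each further array left out (adjusted p at most 0.00977). C4BPA, the alpha chain of the C4b-binding protein, was at 10.66 on DMSO replicate 1, 6.51, 5.89 and 5.41 on the others, and 9.85 and 10.63 in treated cells (3-array difference 4.31, SE 0.48, adjusted p = 0.00546). DMSO replicate 1 was thus above both treated arrays for C4BPA, and without treated replicate 2 the call ended (adjusted p = 0.0935). FGL1, a fibrinogen-like secreted protein, was at 11.40 on DMSO replicate 1, 8.64, 7.31 and 7.54 on the others and 10.53 and 10.87 in treated cells (2.87, SE 0.39, adjusted p = 0.012). Its call ended without DMSO replicate 3 or 4 or either treated array (adjusted p up to 0.137). The proteases C1S and C1R, which start the classical pathway, had 3-array differences of 2.68 (adjusted p = 0.00881) and 1.67 (adjusted p = 0.007), and C5 of 1.29 (adjusted p = 0.0158). DMSO replicate 1 was at 9.91 for C1S, 7.64 for C1R and 8.69 for C5, below both treated arrays. C1R lost its call without treated replicate 2 (0.0943), C1S without DMSO replicate 3 or 4 or treated replicate 2 (up to 0.111), and C5 without DMSO replicate 3 or 4 or either treated array (up to 0.142).

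The list did not move as 1 block. The fibrinogen genes FGA, FGB and FGG were highest in DMSO on replicate 2: FGB was at 6.36, 10.19, 7.80 and 7.80 in DMSO and 8.33 and 9.71 in discodermolide (3-array difference 0.42, adjusted p = 0.831). FGA stood at 7.36, 10.54, 8.20 and 8.16 against 9.49 and 10.21, and for both genes the groups overlapped. ALB, which encodes albumin, was between 3.11 and 3.41 on all 6 arrays. FN1, fibronectin, spanned 12.14, 9.17, 6.39 and 6.63 over the DMSO arrays, against 10.53 and 11.13 in treated cells, and did not pass (3-array difference 3.43, SE 0.82, adjusted p = 0.0582). The list mean on DMSO replicates 1 to 4 was 6.36, 6.14, 5.67 and 5.68, and on the treated arrays 6.97 and 7.20, so DMSO replicates 1 and 2 were both closer to treated cells than replicates 3 and 4 were. The genes of this paragraph, and F2, C1S, C1R and C5 above, were chosen after their values were seen.

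Of the genes that p53 is known to activate, 4 rose in the 4-array comparison and 24 did not pass. All 28 measured members had a positive difference, with a median of 1.07 in the 4-array comparison (0.02 over all genes), and the 4 called were 14.3% of the list, against 0.372% of all genes. In the 3-array comparison 9 were called (32.1%, against 3.52%), 0 of them lower, with a median of 1.02. With the A549 arrays fitted alone, 26 were called higher there, against 10.7% of all genes. Leaving out 1 array gave 0 to 2 calls in the 4-array comparison, apart from 9 without DMSO replicate 1, and 2 to 6 in the 3-array one. The mean of the list was 8.47, 8.21, 8.56 and 8.58 on DMSO replicates 1 to 4 and 9.72 and 9.54 on the treated arrays. Measured from the mean of DMSO replicates 2 to 4 as 0 to the treated mean as 1, DMSO replicate 1 stood at 0.02. That is a mean over members that lay on both sides: DMSO replicate 1 was below the other DMSO arrays for FAS and MDM2 (positions -0.67 and -0.62) and above them for GDF15 (0.99). This list had been chosen with earlier results of these arrays known, so its direction is no independent evidence.

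SPATA18, a p53 target that acts in the removal of damaged mitochondria, stood at 5.54, 5.78, 6.21 and 6.17 in DMSO and at 8.48 and 7.98 in discodermolide (2.30, SE 0.24, adjusted p = 0.00796). EDA2R, a receptor of the TNF receptor family, stood at 7.31, 7.48, 7.41 and 7.52 against 9.07 and 8.77 (1.49, SE 0.15, adjusted p = 0.00796). DDB2, a sensor of ultraviolet DNA damage, stood at 8.86, 8.80, 8.77 and 8.83 against 9.79 and 9.73 (0.94, SE 0.12, adjusted p = 0.0174). The DMSO values of EDA2R and DDB2 lay close together, DMSO replicate 1 among or beside them, and both treated values lay outside their range. SPATA18 and EDA2R lost the call without either treated array (adjusted p up to 0.0914 for each). DDB2 lost it with any single array other than DMSO replicate 1 left out (up to 0.221), as did the fourth called gene, the stress-induced SESN1 (1.94, adjusted p = 0.0423, up to 0.364). FAS, the death receptor, was at 6.50 on DMSO replicate 1 and at 7.47, 8.01 and 8.02 on the others, against 9.65 and 10.00 in treated cells. It was called in the 3-array comparison (1.99, SE 0.23, adjusted p = 0.00652) and missed the threshold in the 4-array one (2.33, adjusted p = 0.0541), and without treated replicate 2 the 3-array call ended (0.0988).

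The p53 targets used most often as markers gave weaker tests. CDKN1A, which encodes p21, was at 8.64, 7.59, 8.35 and 8.36 in DMSO and at 10.21 and 9.79 in discodermolide. Its groups did not overlap, and its difference was 1.76 (SE 0.42, adjusted p = 0.133) in the 4-array and 1.90 (SE 0.43, adjusted p = 0.0506) in the 3-array comparison, so it passed in neither. Arrays of the groups also failed to overlap for 22.9% of all genes in the first comparison and 47.6% in the second. MDM2, the ubiquitin ligase that restrains p53, was at 9.97, 10.49, 10.79 and 10.84 against 12.02 and 11.76 and was called in the 3-array comparison (1.18, SE 0.24, adjusted p = 0.0402; 4-array adjusted p = 0.0993). That call ended with any further array left out (adjusted p up to 0.253). GDF15, a secreted stress factor, ranged from 7.08 on DMSO replicate 2 to 10.44 on replicate 1, against 10.86 and 10.08, and the groups overlapped. The apoptosis genes BBC3 and BAX, chosen after their values were seen, had 4-array differences of 0.08 and 0.51 and did not pass (adjusted p = 0.937 and 0.592).

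ACTA2, smooth muscle alpha actin, was at 8.48, 8.09, 8.29 and 8.56 in DMSO and at 11.21 and 11.02 in treated cells (2.76, SE 0.36, adjusted p = 0.019). SNAI2, a repressor of epithelial genes, rose from 5.04 to 5.51 in DMSO to 6.79 and 6.46 (1.34, SE 0.19, adjusted p = 0.0296). In the list of 26 mesenchymal and contractile genes these were the 2 called (7.69%, against 0.372% of all genes). None was called lower, and the median was 0.22. In the 3-array comparison 3 were called (11.5%, against 3.52% of all genes), the median was 0.09 and 8 of the 26 had a negative difference. VIM, vimentin, had a 4-array difference of -0.24 and CDH2, N-cadherin, of 0.49, neither passing. The growth factor gene TGFB2 was added in the 3-array comparison (1.65, SE 0.20, adjusted p = 0.00773), with DMSO replicate 1 at 10.48, the other DMSO arrays at 9.09 to 9.53 and the treated arrays at 11.02 and 10.81. TM4SF20, a membrane protein of the tetraspanin-like TM4SF family, stood at 5.99, 5.46, 5.04 and 5.56 against 8.15 and 8.18 (2.65, SE 0.27, adjusted p = 0.00796). Its call ended without either treated array (adjusted p up to 0.121). ACTA2 and SNAI2 lost theirs with any single array other than DMSO replicate 1 left out (up to 0.229 and 0.278), and TGFB2 without DMSO replicate 3 or 4 or either treated array (up to 0.0907).

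Of 28 measured genes of basement membrane and heparan sulfate, SULF2 was the 1 called in the 4-array comparison (3.57%, against 0.372% of all genes). In the 3-array comparison 3 were higher (10.7%, against 3.52% of all genes) and 0 lower, with a median of 0.21, and 1 was called with DMSO replicates 3 and 4 as 1 sample. The heparan sulfate proteoglycans HSPG2 (perlecan) and AGRN (agrin) had differences of 1.05 (SE 0.17, adjusted p = 0.0203) and 1.37 (SE 0.23, adjusted p = 0.0232). For AGRN the levels were 9.28, 8.71, 8.09 and 8.12 in DMSO and 9.66 and 9.70 in discodermolide, so DMSO replicate 1 lay closer to the treated cells. Both calls ended without DMSO replicate 3 or 4 or either treated array (adjusted p up to 0.153 and 0.174). Of 11 integrin genes 0 were called in either comparison, and their median difference was 0.23 and 0.30.

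The other large rises belonged to no single list. CRYAB, the small heat shock protein alpha-B crystallin, was the only 1 of 16 heat shock and chaperone genes called (2.89, SE 0.45, adjusted p = 0.039). That was 6.25% of the list, against 0.372% of all genes, and the median of the list was 0.03. On DMSO replicate 1 CRYAB stood at 8.20, about midway from DMSO replicates 2 to 4 to treated cells. In the 3-array comparison its difference was 3.31 (SE 0.16, adjusted p = 0.000152), and the call held under all 5 omissions there. ABAT, which breaks down GABA, rose from 7.20, 6.37, 6.11 and 6.45 to 8.99 and 8.57 (2.25, SE 0.33, adjusted p = 0.0296). CST1, a secreted inhibitor of cysteine proteases, stood at 4.66, 4.13, 4.33 and 4.17 against 6.44 and 6.55 (2.18, SE 0.32, adjusted p = 0.0296). ERV3-1, a gene derived from an endogenous retroviral envelope, stood at 5.71, 6.08, 5.86 and 5.43 against 7.86 and 7.69 (2.00, SE 0.32, adjusted p = 0.0423). CRYAB, ABAT, CST1 and ERV3-1 each lost the 4-array call with any single array other than DMSO replicate 1 left out (adjusted p up to 0.337, 0.278, 0.328 and 0.333). IFITM10, a membrane protein, was called in the 3-array comparison alone (3.22, SE 0.38, adjusted p = 0.00728; up to 0.0988 without either treated array), with DMSO replicate 1 at 8.95, the others at 6.42 to 7.51 and the treated arrays at 10.15 and 10.08.

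Other rises among the 64 are given here as single genes, which belong to no list and were chosen after their values were seen. TLR3, a receptor for double-stranded RNA, stood at 6.26, 5.97, 5.97 and 5.98 in DMSO and at 7.70 and 8.23 in treated cells (1.91, SE 0.27, adjusted p = 0.0282). TLR4, the receptor for lipopolysaccharide, stood at 5.26, 5.12, 5.49 and 5.03 against 6.56 and 6.63 (1.37, SE 0.17, adjusted p = 0.0174). STAT3, a transcription factor downstream of interleukin-6 family receptors, stood at 10.68, 10.60, 10.29 and 10.33 against 11.54 and 11.58 (1.08, SE 0.15, adjusted p = 0.0265). TAP1, a peptide transporter for antigen presentation, had a difference of 1.51 (adjusted p = 0.0259), the cytokine IL32 of 1.32 (adjusted p = 0.0117) and the macrophage growth factor CSF1 of 1.58 (adjusted p = 0.0251). On the scale from the mean of DMSO replicates 2 to 4 to the treated mean, DMSO replicate 1 stood at 0.15 for TLR3, 0.03 for TLR4, 0.24 for STAT3 and 0.22 for TAP1. The calls of TLR3, STAT3, TAP1 and CSF1 ended with any single array other than DMSO replicate 1 left out (adjusted p up to 0.333, 0.317, 0.328 and 0.269). TLR4 kept its call only without DMSO replicate 1 or 3 and IL32 only without DMSO replicate 1 or 2, of the 6 omissions (up to 0.237 and 0.211).

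Interferon-stimulated genes are switched on by interferons and encode antiviral proteins. Many carry the interferon-stimulated response element, searched here on both strands as GAAA followed, after any 2 bases, by GAAA, in the window from 250 bases before to 50 after the start of the gene. It was found in 19 of 30 list members with a window (63.3%) and in 432 of 14197 windows of all measured genes (3.04%). The promoter of IFIT1, whose protein binds foreign RNA, is shown because it holds the motif and because IFIT1 was among the genes that differed most between the treated arrays. The 250 bases before its start are chr10:89392373-89392622 on the plus strand of GRCh38.p14 (RefSeq), with matches in capitals, which read as the reverse complement of the motif:
IFIT1: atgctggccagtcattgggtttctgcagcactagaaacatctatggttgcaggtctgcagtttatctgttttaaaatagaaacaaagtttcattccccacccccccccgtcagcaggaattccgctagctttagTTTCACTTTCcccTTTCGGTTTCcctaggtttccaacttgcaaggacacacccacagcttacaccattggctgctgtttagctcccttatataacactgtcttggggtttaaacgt
A match describes the letters of the window and not the use of the site.

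Of 37 interferon-stimulated genes measured, 2 were higher in the 4-array comparison and 6 in the 3-array one (5.41% and 16.2% of the list, against 0.372% and 3.52% of all genes), 0 were lower, and the median difference was 0.69 and 0.87. The list mean was 6.51 on DMSO replicate 1, 5.96 to 6.04 on the others, 6.51 on treated replicate 1 and 7.71 on treated replicate 2. Treated replicate 1 thus stood level with DMSO replicate 1. The 3-array count was 14 without treated replicate 1 and 0 without treated replicate 2, and it was 3, 1 and 1 without DMSO replicate 2, 3 and 4. The 4-array count was 5 and 0 without treated replicate 1 and 2. TRIM22, an antiviral ubiquitin ligase that is also a p53 target, was high on both treated arrays: 5.09, 4.61, 4.81 and 5.07 in DMSO, 8.06 and 7.87 in discodermolide (3.07, SE 0.31, adjusted p = 0.00796). SAMD9, an antiviral factor, stood at 4.40 to 4.64 in DMSO and at 6.03 and 7.14 (2.10, SE 0.27, adjusted p = 0.0184). IFIT2 was called in the 3-array comparison (2.41, SE 0.38, adjusted p = 0.0196), at 6.15 on DMSO replicate 1, 4.77 to 4.94 on the others, and 6.63 and 7.95 in treated cells. TRIM22 lost its call without either treated array (adjusted p up to 0.0956), SAMD9 without DMSO replicate 2, 3 or 4 or treated replicate 2 (up to 0.0939), and IFIT2 without DMSO replicate 3 or 4 or treated replicate 2 (up to 0.137). GBP2, a guanylate-binding protein outside the list, stood at 7.36 on DMSO replicate 1, above the treated arrays at 6.98 and 7.30, and at 4.00 to 4.24 on the other DMSO arrays (3-array difference 3.01, SE 0.50, adjusted p = 0.0222). Its call ended without DMSO replicate 3 or 4 or either treated array (up to 0.178).

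Most members of the list differed between the 2 treated arrays. Treated replicate 2 was higher than replicate 1 by over 0.5 for 26 of the 37 members and lower by that much for 0, whereas it was higher by that much for 779 of all 18279 genes (4.26%). The median step from replicate 1 to 2 was 1.00 for the list and 0.00 for all genes. IFIT1 was at 7.04, 5.95, 6.13 and 6.15 in DMSO, 7.27 on treated replicate 1 and 10.46 on treated replicate 2. IFI44L was at 6.49, 5.29, 6.48 and 6.42, then 7.44 and 10.52, and IFI6 at 9.14, 8.04, 7.93 and 8.04, then 9.53 and 12.11. IFITM1, which blocks viral entry, was at 8.35 on DMSO replicate 1, 4.84 to 5.36 on the others, 5.81 on treated replicate 1 and 8.50 on treated replicate 2. These 4 genes had the largest steps between treated arrays among genes with a mean over 6, and none was called in the 3-array comparison (adjusted p = 0.0788, 0.0738, 0.0608 and 0.101). With 2 treated arrays, which of them is nearer the typical treated culture cannot be told.

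**Figure D2:**
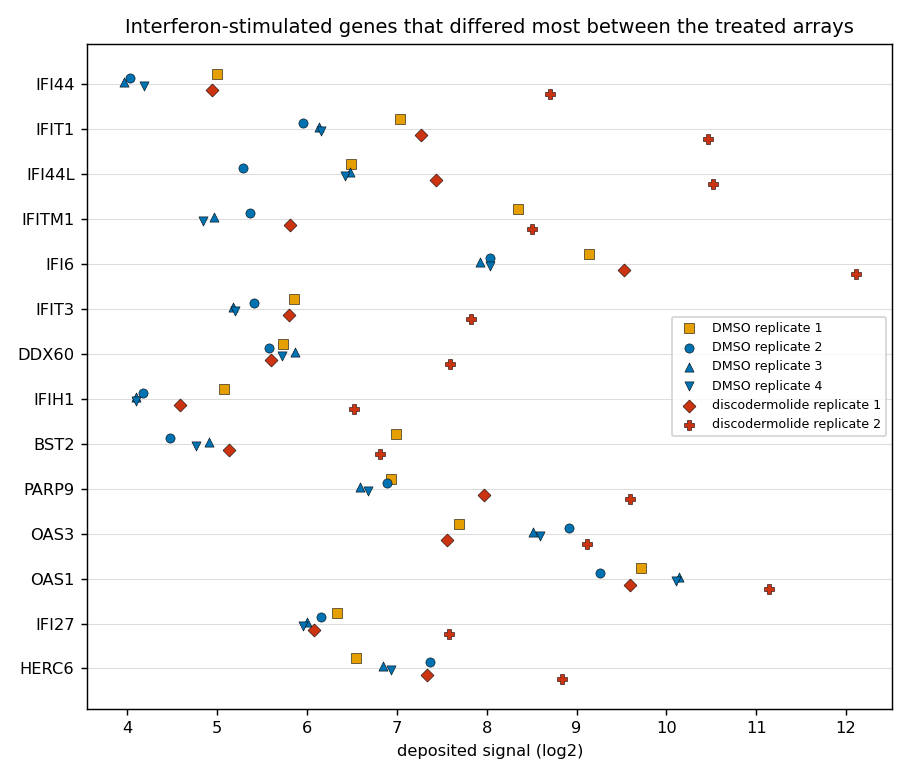
Deposited log2 signal (horizontal axis) on each A549 array for the 14 interferon-stimulated genes with the largest rise from treated replicate 1 to treated replicate 2. Because the genes were chosen by this rise, replicate 2 (plus marks) lies to the right of replicate 1 (diamonds) for each. The rise was 3.20 for IFIT1 and 3.76 for IFI44.

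Of 31 lysosomal genes measured, 30 had a positive difference, 0 were called in the 4-array comparison and 11 were higher in the 3-array one (35.5% of the list, against 3.52% of all genes), with 0 lower. The median difference was 0.78 and 0.87. The list mean was 9.46 on DMSO replicate 1, 8.97, 8.88 and 8.90 on the others and 9.72 and 9.81 in treated cells. FUCA1, which removes fucose from glycoproteins, was at 8.82, 7.66, 7.72 and 7.87 in DMSO and at 9.35 and 9.49 in treated cells (1.67, SE 0.17, adjusted p = 0.00404). CTSO, a cysteine protease, was at 6.58, 5.88, 5.52 and 5.67 against 7.08 and 7.63 (1.67, SE 0.21, adjusted p = 0.00882). GLB1 encodes lysosomal beta-galactosidase, whose activity is the common stain for senescence. It was at 10.16 on DMSO replicate 1, 9.11, 8.96 and 8.98 on the others, and 10.18 and 10.35 in treated cells (1.25, SE 0.17, adjusted p = 0.0114), so DMSO replicate 1 was level with the treated cells. FUCA1 lost its 3-array call without treated replicate 2 (adjusted p = 0.0713), CTSO without DMSO replicate 3 or 4 or treated replicate 2 (up to 0.0988), and GLB1 without DMSO replicate 3 or 4 or either treated array (up to 0.137). With DMSO replicates 3 and 4 as 1 sample, 1 of the 31 was called, and leaving out DMSO replicate 2, 3 or 4 or treated replicate 1 or 2 gave 9, 1, 1, 3 and 0.

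Lysosomal genes are known to be activated by TFEB and related factors, which bind the letters CACGTG. These letters were in 7 of 21 lysosomal windows (33.3%) and in 1262 of 14197 windows of all measured genes (8.89%). The promoter of CTSD, the aspartic protease cathepsin D (3-array difference 1.34, SE 0.23, adjusted p = 0.0251), is shown as an example that holds the motif. It was chosen after its values were seen, and its call ended without DMSO replicate 3 or 4 or either treated array (adjusted p up to 0.184). The 250 bases before its start are chr11:1763928-1764177 on the minus strand of GRCh38.p14 (RefSeq), with the match in capitals:
CTSD: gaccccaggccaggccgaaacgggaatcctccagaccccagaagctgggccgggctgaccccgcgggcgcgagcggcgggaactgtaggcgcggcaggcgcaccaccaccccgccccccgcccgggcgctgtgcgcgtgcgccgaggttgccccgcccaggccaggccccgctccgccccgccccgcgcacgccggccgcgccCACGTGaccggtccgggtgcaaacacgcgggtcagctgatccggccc
Autophagy genes, many with the same regulators, had a median difference of 0.49 and 0.54. Above 0 were 19 of 21 members in each comparison, and 9872 and 10179 of all 18279 genes. ULK1, the kinase that starts autophagy, was the 1 member called, in the 3-array comparison (4.76% of the list, against 3.52% of all genes). Its difference there was 1.31 (SE 0.20, adjusted p = 0.0189), with levels of 8.95, 8.27, 7.60 and 7.74 in DMSO and 9.16 and 9.19 in treated cells. Its call ended without DMSO replicate 3 or 4 or either treated array (adjusted p up to 0.153).

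Of 33 measured genes for proteins that senescent cells are known to secrete, 0 passed in the 4-array comparison and 5 were higher and 0 lower in the 3-array one (15.2%, against 3.52% of all genes), with medians of 0.33 and 0.39. With the A549 arrays fitted alone, 12 were higher and 1 lower in the 3-array comparison, against 10.7% and 8.21% of all genes. In the 3-array comparison 1 was called without DMSO replicate 2, and 0 without DMSO replicate 3 or 4 or either treated array. CXCL8, the neutrophil attractant interleukin-8, was at 6.01, 5.46, 5.62 and 5.78 in DMSO and 6.86 and 8.07 in treated cells (1.84, SE 0.41, adjusted p = 0.0482). IL6 was at 4.37, 3.77, 3.98 and 3.51 against 4.83 and 5.59 (1.45, SE 0.28, adjusted p = 0.0329), a low signal on all DMSO arrays. STC1, a secreted glycoprotein hormone, was at 7.13, 5.70, 5.45 and 5.32 against 8.22 and 8.47 (2.85, SE 0.55, adjusted p = 0.0361), and TIMP2, an inhibitor of metalloproteases, had a difference of 1.31 (SE 0.20, adjusted p = 0.0158). The calls of CXCL8, IL6 and STC1 ended with any further array left out (adjusted p up to 0.283, 0.218 and 0.216), and that of TIMP2 without DMSO replicate 3 or 4 or either treated array (up to 0.151). IL1A and MMP3, chosen after their values were seen, were between 3.16 and 4.56 on all 6 arrays, with differences of -0.16 and -0.08.

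**Figure D3:**
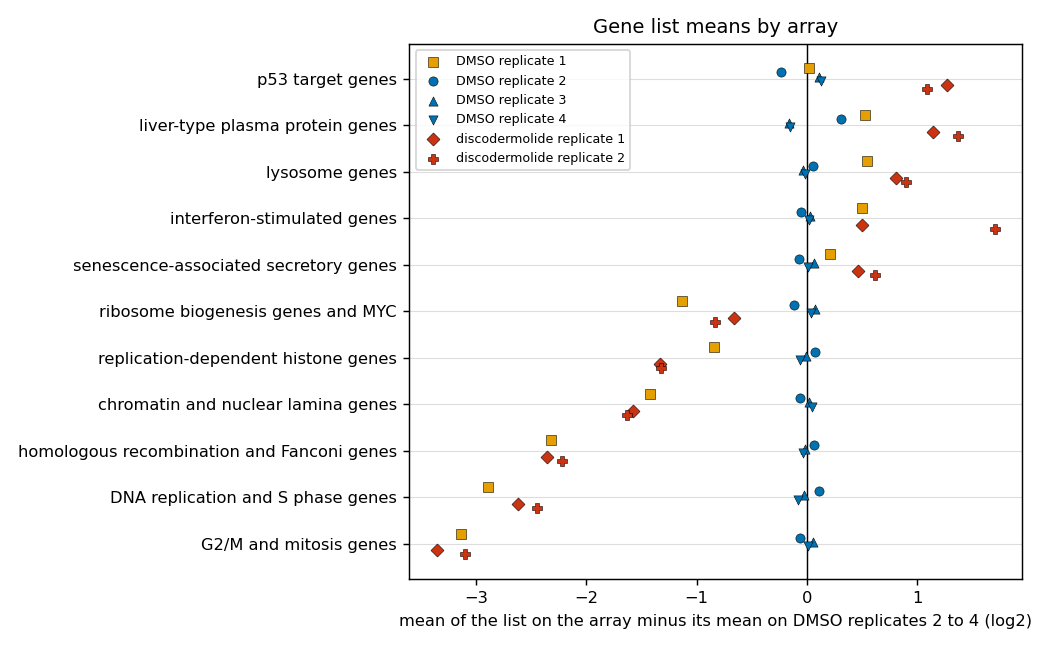
Mean log2 signal of 11 gene lists on each A549 array, minus the mean of the list on DMSO replicates 2 to 4 (horizontal axis; 0 is that mean). DMSO replicate 1 (orange square) lay with the other DMSO arrays for p53 target genes and with the treated arrays for the replication, recombination and mitosis lists; it stood at 0.02, 1.14, 1.01 and 0.98 on the scale where 0 is DMSO replicates 2 to 4 and 1 the treated mean.

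Transcripts of dividing cells were low on both treated arrays and equally low on DMSO replicate 1. All 31 measured G2/M and mitosis genes had negative differences, with a median of -2.43 in the 4-array and -3.24 in the 3-array comparison. The list mean was 6.75 on DMSO replicate 1, 9.83, 9.94 and 9.90 on replicates 2 to 4, and 6.54 and 6.79 on the treated arrays. The number that passed was 0 in the 4-array and 1 in the 3-array comparison (3.23% of the list, against 3.52% of all genes). When the A549 arrays were fitted alone, without the AD32 arrays that share the spread in the reported fit, 31 of 31 were lower and passed in the 3-array comparison, as did 8.21% of all genes. In that fit 37 of 50 replication-dependent histone genes were called lower and 2 higher, and 24 of 31 lysosomal, 20 of 35 plasma protein and 12 of 37 interferon-stimulated genes were called higher, against 10.7% of all genes. MKI67, the Ki-67 proliferation marker, was at 6.42 on DMSO replicate 1, 10.63, 9.88 and 9.90 on the others and 6.90 on both treated arrays (-3.24, SE 1.11, adjusted p = 0.143). CCNB1, the mitotic cyclin B1, was at 7.92, then 11.04, 11.58 and 11.52, then 8.45 and 8.96 (-2.68, SE 1.15, adjusted p = 0.234). CDCA8, borealin of the chromosomal passenger complex, fell by 2.74 in the 3-array comparison (SE 0.61, adjusted p = 0.0499), from 8.29, 8.50 and 8.48 to 5.60 and 5.76, with DMSO replicate 1 at 5.85. That call ended with any further array left out (adjusted p up to 0.274). DMSO replicate 1, which had no drug by its label, thus stood level with treated cells on these genes, and what lowered them on that array was not tested.

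Mitotic genes are known to be repressed in arrested cells through the element TTTGAA (the cell cycle genes homology region) and activated through CCAAT boxes. In windows from 250 bases before to 50 after the start, searched on both strands, TTTGAA was in 18 of 25 list members (72%) and in 1691 of 14197 genes (11.9%). CCAAT was in 20 of 25 (80%) and in 5151 of 14197 (36.3%). The promoters of CDCA8, the called member, and MKI67 are shown because both hold the pair of motifs. They are chr1:37692266-37692515 on the plus strand and chr10:128126424-128126673 on the minus strand of GRCh38.p14 (RefSeq), 250 bases before each start. Capitals mark TTTGAA and CCAAT or its reverse complement ATTGG, which overlap in 1 place in each:
CDCA8: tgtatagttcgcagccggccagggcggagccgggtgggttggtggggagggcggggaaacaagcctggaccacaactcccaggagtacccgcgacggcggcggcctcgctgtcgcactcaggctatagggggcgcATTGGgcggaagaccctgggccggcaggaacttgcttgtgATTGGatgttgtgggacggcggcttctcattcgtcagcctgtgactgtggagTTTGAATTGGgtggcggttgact
MKI67: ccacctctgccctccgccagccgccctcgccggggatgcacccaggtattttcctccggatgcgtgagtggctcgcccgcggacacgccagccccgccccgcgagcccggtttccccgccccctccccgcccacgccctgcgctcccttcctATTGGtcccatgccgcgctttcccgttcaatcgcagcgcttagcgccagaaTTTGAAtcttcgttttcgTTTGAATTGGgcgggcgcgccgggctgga

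DNA replication genes followed the same arrays. Of 32 measured, 32 had a negative difference, the median was -1.82 and -2.60, and 0 and 5 were called lower in the 4-array and the 3-array comparison. The 5 were 15.6% of the list, against 3.52% of all genes. With the A549 arrays fitted alone, 30 of the 32 were called lower in the 3-array comparison, against 8.21% of all genes. The list mean was 6.91 on DMSO replicate 1, 9.91, 9.77 and 9.72 on the others and 7.18 and 7.35 in treated cells. POLE2, a subunit of the leading strand polymerase, was at 4.96 on DMSO replicate 1, 8.40, 8.87 and 8.76 on the others and 4.46 and 4.77 in treated cells (-4.06, SE 0.89, adjusted p = 0.0476). PRIM1, the primase subunit, was at 7.95, then 10.57, 10.53 and 10.49, then 7.27 and 7.96 (-2.91, SE 0.61, adjusted p = 0.0438). ATAD2, a chromatin ATPase of replicating cells, was at 7.01, then 10.07, 10.13 and 10.02, then 6.44 and 6.67 (-3.52, SE 0.66, adjusted p = 0.0324). RFC4 and RFC3, of the complex that loads the sliding clamp, had differences of -1.98 (adjusted p = 0.0402) and -2.78 (adjusted p = 0.0451). PCNA, the clamp itself and also a p53 target, had the smallest 4-array difference of the list (-0.19, adjusted p = 0.954), at 9.05, 10.87, 10.84 and 10.78 in DMSO and 9.85 and 10.54 in treated cells. Outside the list, the replication genes DSCC1 (-3.43, adjusted p = 0.0477) and WDHD1 (-2.83, adjusted p = 0.0356), the meiotic recombination gene MND1 (-3.86, adjusted p = 0.039), the mitotic kinesin gene KIF20B (-3.00, adjusted p = 0.0494), DEPDC1B (-2.96, adjusted p = 0.0499) and the noncoding DLEU2 (-3.25, adjusted p = 0.0356) were also lower. Of the genes named here, the calls of POLE2, PRIM1, ATAD2, RFC4, DSCC1, WDHD1, MND1, KIF20B, DEPDC1B and DLEU2 ended with any further array left out; their highest adjusted p were 0.266, 0.276, 0.205, 0.269, 0.25, 0.205, 0.231, 0.251, 0.276 and 0.227.

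Replication genes are activated by E2F factors, whose sites were searched as TTTCCCGC or TTTGGCGC on both strands. They were in 14 of 29 windows of the list (48.3%) and in 440 of 14197 of all genes (3.1%). RFC3, which was chosen after its values were seen, is shown as a called member with 1 match. The 250 bases before its start are chr13:33817899-33818148 on the plus strand of GRCh38.p14 (RefSeq), with the match, in reverse complement, in capitals:
RFC3: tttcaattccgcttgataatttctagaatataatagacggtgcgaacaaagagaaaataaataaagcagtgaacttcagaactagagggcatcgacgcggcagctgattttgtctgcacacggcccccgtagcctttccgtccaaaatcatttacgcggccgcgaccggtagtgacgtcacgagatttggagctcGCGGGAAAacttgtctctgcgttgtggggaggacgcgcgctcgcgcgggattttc
RFC3 was at 7.74 on DMSO replicate 1, 10.19, 10.70 and 10.67 on the others and 7.61 and 7.86 in treated cells, and lost its call with any further array left out (adjusted p up to 0.255). The repressors of the E2F family, E2F8 and E2F7, were themselves lower, by -2.72 (SE 0.30, adjusted p = 0.00546) and -1.94 (SE 0.36, adjusted p = 0.0313). E2F8 was at 4.90 on DMSO replicate 1, 7.37, 7.80 and 7.54 on the others and 4.94 and 4.77 in treated cells. Among 20 cyclins, CDKs and E2F factors the other call was a rise, of CCNG2, an atypical cyclin of resting cells (1.35, SE 0.29, adjusted p = 0.044). The calls made up 15% of that list in the 3-array comparison, against 3.52% of all genes. E2F8 lost its call without treated replicate 2 (adjusted p = 0.0935), and E2F7 and CCNG2 with any further array left out (up to 0.205 and 0.243).

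Homologous recombination and Fanconi genes had medians of -1.81 and -2.53 over 18 measured, with 0 and 2 lower. The 2 were 11.1% of the list, against 3.52% of all genes. With the A549 arrays fitted alone, 16 of the 18 were lower in the 3-array comparison, against 8.21% of all genes. RAD54B, a recombination helicase, and BARD1, the partner of BRCA1, had differences of -1.50 (SE 0.25, adjusted p = 0.023) and -2.63 (SE 0.58, adjusted p = 0.0482). BARD1 was at 5.75 on DMSO replicate 1, 8.31, 7.70 and 7.56 on the others and 5.16 and 5.29 in treated cells, which again placed DMSO replicate 1 near the treated arrays. BARD1 lost its call with any further array left out and RAD54B without DMSO replicate 3 or 4 or either treated array (adjusted p up to 0.263 and 0.167).

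Histone genes of the replication-dependent clusters, which are transcribed in S phase, held 2 of the 4 falls that passed with all DMSO arrays. H1-4, a linker histone, was at 12.37, 12.53, 12.70 and 12.76 in DMSO and 10.75 and 10.99 in treated cells (-1.72, SE 0.18, adjusted p = 0.00796). H3C11, an H3 gene, was at 11.51, 12.17, 12.07 and 12.07 against 9.08 and 9.15 (-2.84, SE 0.39, adjusted p = 0.025). For both genes DMSO replicate 1 lay below the other DMSO arrays, at 0.16 and 0.20 of the way to the treated mean. Calls with all 4 DMSO arrays need DMSO replicate 1 to be near the others, so these positions follow from the choice of genes. The mean of the whole list stood at 0.63 on that scale. Of 50 measured members, 2 were lower in the 4-array comparison and 13 in the 3-array one (4% and 26% of the list, against 0.372% and 3.52% of all genes). None was called higher, and the median was -1.13 and -1.43. The 13 became 1 with DMSO replicates 3 and 4 as 1 sample, 4 without DMSO replicate 2, and 1 without DMSO replicate 3 or 4 or either treated array. H4C14 and H4C15 are among the 13 and have the same values on every array, so they count once. H3C12, at 6.52, 8.06, 9.05 and 8.94 in DMSO and 5.50 and 5.24 in treated cells, had a 3-array difference of -3.31 (SE 0.56, adjusted p = 0.0242), and H2AC21 of -2.48 (SE 0.41, adjusted p = 0.0231). Against the list, H4C8 and H2BC12, chosen after their values were seen, stood higher, at 10.63 and 9.70 and at 10.42 and 10.53 in treated cells, with 4-array differences of 1.41 and 1.30 that did not pass (adjusted p = 0.171 and 0.255). These genes have near-identical copies, and a probe set may read more than 1 of them. H1-4 lost its 4-array call without either treated array (adjusted p up to 0.105) and H3C11 with any array other than DMSO replicate 1 left out (up to 0.272). H3C12 and H2AC21 lost their 3-array calls without DMSO replicate 3 or 4 or either treated array (up to 0.18 for each). Of 8 replication-independent variant genes, 0 were called in either comparison, and the median was -0.26 and -0.35.

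The other falls with all DMSO arrays were RFLNB and CACNB2. RFLNB, which encodes refilin B, a filamin-binding regulator of actin, was at 8.49, 8.62, 8.87 and 8.86 in DMSO and 7.29 and 7.17 in treated cells (-1.48, SE 0.16, adjusted p = 0.0104). CACNB2, a beta subunit of voltage-gated calcium channels, was at 6.72, 6.90, 6.85 and 6.97 against 5.61 and 5.89 (-1.11, SE 0.14, adjusted p = 0.019). RFLNB lost its call without DMSO replicate 4 or either treated array (adjusted p up to 0.18), and CACNB2 with any array other than DMSO replicate 1 left out (up to 0.203). NTS, the peptide neurotensin, was at 10.39, 11.74, 10.45 and 10.58 in DMSO and 7.48 and 7.54 in treated cells. It missed the threshold in the 4-array comparison (-3.27, SE 0.60, adjusted p = 0.0666) and passed in the 3-array one (-3.41, SE 0.63, adjusted p = 0.0313), where any further array left out ended the call (up to 0.196). Unlike the replication genes, NTS on DMSO replicate 1 lay with the other DMSO arrays.

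Of 12 measured genes of chromatin and the nuclear lamina that are known to be lost in senescence, 0 were called in the 4-array comparison. In the 3-array one 4 were called, all lower (33.3%, against 3.52% of all genes), and the medians were -1.31 and -1.68. With the A549 arrays fitted alone, 10 of the 12 were lower in the 3-array comparison, against 8.21% of all genes. LMNB1, lamin B1, was at 7.71 on DMSO replicate 1, 10.15, 10.23 and 10.18 on the others and 7.42 on both treated arrays. It did not pass (-2.76, SE 0.80, adjusted p = 0.0958). Its SD over DMSO replicates 2 to 4 was 0.04, and the SE also takes in the spread of the AD32 arrays. HMGB2, a chromatin protein, was at 6.57, then 8.44, 8.59 and 8.58, then 5.66 and 6.06 (-2.68, SE 0.47, adjusted p = 0.0259). TMPO, a lamin-binding protein of the inner nuclear membrane, had a difference of -2.47 (SE 0.33, adjusted p = 0.0115) and EZH2, the histone H3 methyltransferase of Polycomb, of -1.50 (SE 0.20, adjusted p = 0.0114). HMGB2 lost its call with any further array left out, and TMPO and EZH2 without DMSO replicate 3 or 4 or either treated array (adjusted p up to 0.189, 0.116 and 0.104). In the list of 14 CDK inhibitors and senescence markers, 0 were called in the 4-array comparison and GLB1 and HMGB2 in the 3-array one (14.3%, against 3.52% of all genes). CDKN2A was between 5.83 and 6.36 on all 6 arrays, with a difference of -0.21.

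Ribosome biogenesis genes, which follow growth, had medians of -0.41 and -0.78 over 22 measured, with 0 and 2 lower. The 2 were 9.09% of the list, against 3.52% of all genes. With the A549 arrays fitted alone, 17 of the 22 were lower in the 3-array comparison, against 8.21% of all genes. POLR1B, a subunit of RNA polymerase I, was at 8.26, 8.91, 9.33 and 9.28 in DMSO and 7.91 and 7.63 in treated cells (-1.40, SE 0.24, adjusted p = 0.0256). RRP12, a ribosome export factor, had a difference of -0.67 (SE 0.15, adjusted p = 0.048). The list mean was 8.86 on DMSO replicate 1, 9.88 to 10.07 on the others and 9.33 and 9.16 in treated cells, so here DMSO replicate 1 lay beyond the treated arrays. MYC was at 9.40 to 9.63 in DMSO and at 9.69 and 9.58 in treated cells. POLR1B lost its call without DMSO replicate 3 or 4 or either treated array and RRP12 with any further array left out (adjusted p up to 0.199 and 0.29).

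The position of DMSO replicate 1 was read for each gene of the 3-array comparison on a scale where 0 is the mean of DMSO replicates 2 to 4 and 1 the treated mean; that array had no part in choosing those genes. For the 181 falls the median position was 0.97 (quartiles 0.78 and 1.20), and 163 of them (90.1%) lay nearer the treated mean. For the 462 rises the median was 0.51 (quartiles 0.18 and 0.87), and 235 (50.9%) lay nearer the treated mean. The quartiles of rises and falls overlapped, and DMSO replicate 1 lay beyond every other DMSO array on the treated side for 359 of the 462 rises and 177 of the 181 falls. Of the 68 genes called with all 4 DMSO arrays, 1, CRYAB, lay nearer the treated mean, as calls there need DMSO replicate 1 to be close to the other DMSO arrays. The p53 targets (0.02) and the mesenchymal and contractile genes (0.17) had list means near 0, the secretory genes (0.38), plasma proteins (0.42) and interferon-stimulated genes (0.45) lay between, and lysosomal (0.64) and histone genes (0.63) nearer 1. What set DMSO replicate 1 apart was not tested; the labels do not tell it from the other DMSO arrays.

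**Figure D4:**
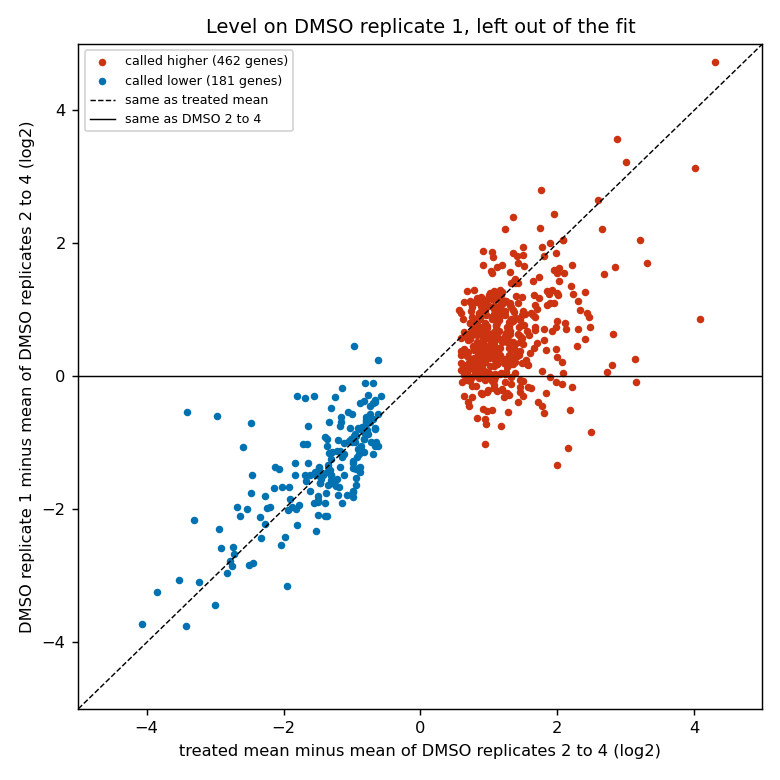
For the 643 genes of the 3-array comparison, the treated mean minus the mean of DMSO replicates 2 to 4 (horizontal axis, log2) against DMSO replicate 1 minus the same mean (vertical axis, log2). Falls (blue) lie along the dashed line of equal difference, with a median position of 0.97, and rises (red) spread between that line and the horizontal line of no difference, with a median of 0.51.

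Of 21 genes of the drug's target, tubulin, and its cofactors, 0 were called in the 4-array comparison and 1 was lower in the 3-array one. That 1 was 4.76% of the list, against 3.52% of all genes, and the median was -0.16 and -0.25. With the A549 arrays fitted alone, 2 were higher and 7 lower in the 3-array comparison, when 18.9% of all genes were called. TUBB, a main beta tubulin, was at 12.06 on DMSO replicate 1, 13.30, 13.28 and 13.26 on the others and 12.71 and 12.60 in treated cells (4-array difference -0.32, SE 0.47, adjusted p = 0.889). TUBB4B was at 10.35, then 12.17, 12.13 and 12.20, then 11.32 and 11.06 (3-array difference -0.98, SE 0.21, adjusted p = 0.0453), a call that ended with any further array left out (up to 0.269). For both genes DMSO replicate 1 was lower than the treated cells. TUBA1A, chosen after its values were seen, was at 8.75, 9.35, 8.13 and 8.23 in DMSO and 10.27 and 10.03 in treated cells (1.53, adjusted p = 0.272), and did not pass.

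Among 26 microtubule-associated genes 1 was higher and 1 lower in the 3-array comparison, and 0 in the 4-array one, with medians of -0.01 and -0.06. The 3-array calls were 7.69% of the list, against 3.52% of all genes. MAPRE3, the end-binding protein EB3 that tracks growing plus ends, was at 8.71, 7.65, 7.38 and 7.22 in DMSO and at 9.35 and 9.32 in treated cells (1.92, SE 0.17, adjusted p = 0.00249). It stayed called under all 5 further omissions (adjusted p at most 0.0436). CLASP2, which also binds plus ends, was at 8.71, then 9.69, 9.75 and 9.66, then 8.68 and 8.73 (-0.99, SE 0.16, adjusted p = 0.0201), a call lost without DMSO replicate 3 or 4 or either treated array (up to 0.151). STMN1, stathmin, which takes tubulin from microtubules, was at 7.92, then 9.58, 9.81 and 9.89, then 7.52 and 8.05, and did not pass (-1.97, SE 0.65, adjusted p = 0.133).

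Of 19 BCL2 family, inhibitor of apoptosis and caspase genes, 0 were called in the 4-array comparison and 1 in the 3-array one (5.26%, against 3.52% of all genes). The 1 was BCL2L1, which encodes BCL-XL, at 10.54, 10.30, 10.20 and 10.24 in DMSO and 11.63 and 11.52 in treated cells. Its difference was 1.25 in the 4-array comparison (SE 0.22, adjusted p = 0.0624) and 1.33 in the 3-array one (SE 0.23, adjusted p = 0.0248), with the call lost when any further array was left out (up to 0.173). EIF4EBP1, the translation repressor 4E-BP1 that the series also studies, was at 10.23 on DMSO replicate 1, 9.50, 9.47 and 9.52 on the others and 9.76 and 9.58 in treated cells (-0.01, SE 0.29, adjusted p = 0.995). Both treated values lay within the DMSO range only through DMSO replicate 1, and above DMSO replicates 2 to 4 (3-array difference 0.17, SE 0.25, adjusted p = 0.774). Of 22 cap-dependent translation and mTOR genes 0 and 2 were called, the latter 9.09% of the list, against 3.52% of all genes. The 2 were the kinase gene MKNK2 (1.42, SE 0.19, adjusted p = 0.0121) and the helicase gene EIF4A2 (0.97, SE 0.20, adjusted p = 0.0404). ABCB1, the efflux pump P-glycoprotein, was between 4.31 and 4.53 on all 6 arrays, and ABCA12, a lipid transporter, was the 1 of 11 ABC genes called (3-array difference 2.16, SE 0.40, adjusted p = 0.0313). That 1 call was 9.09% of the list, against 3.52% of all genes. The calls of EIF4A2 and ABCA12 ended with any further array left out, and that of MKNK2 without DMSO replicate 3 or 4 or either treated array (adjusted p up to 0.26, 0.227 and 0.11).

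In the 3-array comparison the share called of the stress and signalling lists ran from 0 to 15.8%, against 3.52% of all genes. It was 15.8% for immediate-early and AP-1 genes and 10.5% for hypoxia and glycolysis genes. For endoplasmic reticulum and amino acid stress genes it was 5%. Among 19 immediate-early and AP-1 genes, DUSP6, a phosphatase of ERK, was higher in the 3-array comparison (2.11, SE 0.36, adjusted p = 0.0256; 6.86 to 8.13 in DMSO, 9.31 and 9.57 treated), as was FOSL2 (0.83, adjusted p = 0.0407), and KLF6 was lower (-0.76, adjusted p = 0.0474). Among 19 hypoxia and glycolysis genes, the mitophagy gene BNIP3 (0.63, SE 0.13, adjusted p = 0.0402) and the aldolase gene ALDOC (1.06, SE 0.23, adjusted p = 0.0453) were higher. Among 20 endoplasmic reticulum and amino acid stress genes SDF2L1, a chaperone subunit, was lower (-1.25, SE 0.28, adjusted p = 0.0488). Of 25 NRF2 target genes and 20 cholesterol and fatty acid synthesis genes 0 were called in either comparison, with medians from -0.16 to 0.14. In the 4-array comparison none of these 5 lists had a call. The calls of DUSP6, FOSL2, KLF6 and BNIP3 ended with any further array left out, and those of ALDOC and SDF2L1 without DMSO replicate 3 or 4 or either treated array (adjusted p up to 0.192, 0.279, 0.275, 0.23, 0.272 and 0.298).

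Markers of the labelled cell type were checked on the same arrays. KRT8 and KRT18, keratins of simple epithelia, were at 12.67 to 13.34 and 13.03 to 13.70 in DMSO and at 13.53 and 13.27 and 13.90 and 13.61 in treated cells. EPCAM, an epithelial adhesion molecule, was at 3.30 to 3.63 in DMSO and 3.63 and 3.87 in treated cells, below the lower quartile of every array. NKX2-1, the lung lineage factor, and SFTPC, surfactant protein C, were at 4.58 to 4.96 and 5.89 to 6.35 on all 6 arrays, below the array medians. Of 23 epithelial genes 0 were called in the 4-array comparison and 1 in the 3-array one (4.35%, against 3.52% of all genes). CDH1, E-cadherin, was at 9.53, 8.46, 8.83 and 8.87 in DMSO and 10.01 and 9.67 in treated cells (3-array difference 1.12, SE 0.22, adjusted p = 0.0376), and the call ended with any further array left out (up to 0.25). Of 16 alveolar and airway genes, 9 leukocyte and endothelial markers and 7 fibroblast markers, 0 were called in either comparison. DMSO replicate 1 had the highest mean of all 6 arrays for the alveolar and airway list (6.56, against 5.96 to 6.20 on the other DMSO arrays and 6.26 and 6.32 in treated cells). The same held for the leukocyte and endothelial list (5.57, against 5.09 to 5.20 and 5.24 and 5.37). For the fibroblast list it had the lowest mean (5.47, against 5.72 to 5.86 on the other DMSO arrays), and the part of such genes in the differences was not tested. PTPRC, the pan-leukocyte CD45, was between 2.91 and 3.09 and DCN, a fibroblast proteoglycan, between 2.88 and 3.22 on all 6 arrays. Both lay below the means of their lists and do not stand for the other members.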

How the data were processed

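Total RNA of 10 samples was hybridised to Affymetrix arrays, 1 array a sample. By their range the deposited values are log2 signals. The submitters' processing notes name Affymetrix Expression Console as the authors' tool, and its version, summarisation and normalization settings were not found in the sources used here. The number of arrays limits the precision. Of 24308 probe sets, 19262 name 1 gene, 1720 several and 3326 none in the annotation used. Of 18279 genes, 740 had over 1 probe set, and that with the highest mean was used.

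Groups were taken from the titles, except that of AD32 4E-BP1, whose title says only sensitive cells and whose group came from its cell line label. limma 3.58.1 in R 4.3.3 (lmFit, eBayes) was fitted to all 10 arrays with 4 group means (6 residual degrees of freedom, 5 without DMSO replicate 1). P-values were two-sided and adjusted over all genes (Benjamini-Hochberg), with a threshold of 0.05. Python 3.11.15 made the summaries. In simulated data with 200 of 18279 genes changed, the fit recovered 40.5% of log2 changes of 1 and 90% of 2 with all DMSO arrays. Without DMSO replicate 1 it recovered 47.5% and 90.5%. False calls were 2 and 11, and 3 and 11. The simulated noise was independent between genes, with no array deviating over many genes as DMSO replicate 1 did. These shares need not hold for the real arrays, where 0 of 31 mitosis genes (4-array median -2.43) passed with all DMSO arrays.

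The members, gene lists and rules were chosen with earlier results of these data known. Named genes were the 15 largest rises and up to 10 falls with all DMSO arrays and the 12 largest of each without replicate 1, among called genes whose arrays did not overlap. Up to 3 called members a list were added, as were 17 measured genes named whatever their result and the 4 genes with the largest step between treated arrays at a mean over 6. BBC3, BAX, VIM, CDH2, PCNA, MYC, CDKN2A, SFTPC, PTPRC and DCN, beside the genes so described in the text, were chosen after their values were seen. Alternatives were quantile normalization, median centring, omission of the lowest 33.3% of genes, array weights, a trended robust prior, the mean of probe sets, the A549 arrays alone, AD32 replicate 3 left out, DMSO replicates 3 and 4 as 1 sample, a minimum fold of 1.5, the replicate number as a block, and each array left out. Pseudocounts did not apply. Promoter windows are RefSeq's, GRCh38.p14.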

Additional observations from a re-analysis of the deposited data

Results flagged for a closer look

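Over the 4 DMSO arrays, a value was picked out where its gap to the nearest other array exceeded the share of the group's whole range that Dixon's limit for 4 values sets. Chance alone picks out about 1 in 20 such groups. Here 35 of the 96 named genes were picked out, and 13.7% of all genes. The array concerned was DMSO replicate 1 for 32 of the 35, DMSO replicate 2 for 2 and DMSO replicate 4 for 1, and over all genes it was replicate 1 for 2050, replicate 2 for 291, replicate 3 for 89 and replicate 4 for 73.

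DMSO replicate 1 was low for genes of replication, mitosis and chromatin. Its levels were 4.96 for POLE2, 7.01 for ATAD2, 4.90 for DSCC1, 5.14 for KIF20B, 6.86 for DEPDC1B, 7.95 for PRIM1, 6.62 for WDHD1 and 7.00 for RFC4. It stood at 7.92 for CCNB1, 5.85 for CDCA8, 4.90 for E2F8, 5.71 for E2F7, 5.73 for RAD54B and 11.51 for H3C11. For LMNB1 it was at 7.71, for HMGB2 at 6.57 and for EZH2 at 7.25.

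The same array was also low for cytoskeletal genes, at 12.06 for TUBB, 10.35 for TUBB4B, 7.92 for STMN1, 8.71 for CLASP2, 12.67 for KRT8 and 13.03 for KRT18, and for RRP12 at 8.43. It was high for C3 at 9.62, GBP2 at 7.36, IFITM1 at 8.35, IFI6 at 9.14, IFIT2 at 6.15, CRYAB at 8.20, GLB1 at 10.16 and EIF4EBP1 at 10.23.

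DMSO replicate 2 was high for NTS at 11.74 and low for IFI44L at 5.29. DMSO replicate 4 was low for TTR at 5.34, where the other DMSO arrays lay between 5.48 and 5.50.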

How the results depend on the processing

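With all 4 DMSO arrays, 68 genes were called. The count was 134 with AD32 replicate 3 left out of the pooled spread, 106 with the A549 arrays alone, 4573 with array weights, 36 without the lowest 33.3% of genes, 15 with DMSO replicates 3 and 4 as 1 sample and 9 against a minimum fold of 1.5. Leaving out 1 array gave 8 to 643. Quantile normalization, median centring, the mean of probe sets and a trended prior gave 46, 55, 70 and 92. Without DMSO replicate 1, 643 genes were called. The count was then 2656 with AD32 replicate 3 left out of the pooled spread, 3452 with the A549 arrays alone, 4968 with array weights, 55 with DMSO replicates 3 and 4 as 1 sample and 30 against the minimum fold, and leaving out 1 further array gave 27 to 433. The causes were not tested, beyond the smaller number of samples in the last. Median centring moved the split in the second comparison from 462 higher and 181 lower to 350 and 198.

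With the replicate number as a block, 4 genes were called with all 4 DMSO arrays, all higher. Whether the numbers pair the samples is not stated by the labels. The deviations of same-numbered arrays from their group means correlated at 0.06 for replicate 1 and -0.06 for replicate 2. With 2 treated arrays, the deviations of the treated group mirror each other, so these values cannot decide it. No paired analysis was possible without DMSO replicate 1, because the groups then share 1 number.

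No reported gene or count changed direction where it was called. Of 68 calls, 5 held with each array left out in turn, and of 643, 23 did. Low signal limits the folds of genes near the lower quartile, since the values hold no background estimate.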
